A study of Mus musculus with 10 samples.

Results

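One CUT&Tag library of the series was deposited under the title TGF with no antibody named, and its regions were compared with the profiles of 4 libraries whose antibodies are known. Its table listed 464781 regions, and a peak had been called in this library at 131252 of them (28.2%). The members described here are the 7499 called regions that held at least 5 reads, which is 1.61% of the regions listed. The read count alone chose them: 3317 members held exactly 5 reads, just inside the minimum, and 8354 called regions held 4 reads, just outside it.

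The series holds 10 libraries of primary mouse cardiac fibroblasts, with 1 library per antibody and condition. Of the libraries used here, 5 came from cells that the labels give as treated with TGF-b: the library with no antibody named and the libraries for H3K9lc, JUN, SMAD3 and NFATC2. Each named antibody also had a library from cells transfected with siRNA against Hk1 and then given TGF-β (titled SI for H3K9lc and SIHK1 for the others), and the NC library came from untreated cells. Strain, sex and age of the mice are not given in the labels. The labels do not say whether the cells of the library titled TGF carried any other agent. Its table also holds columns of a second library, with the prefix GFP, that match no sample, and the study describes CUT&Tag with an antibody to FLAG on cells given FLAG-tagged IRF7 and TGF-β. Whether the library titled TGF is that one cannot be told from the labels, and what put the regions not called in it, which serve as the background, on the list was not examined. Because no antibody and condition was repeated, no comparison between libraries below has a test. Intervals are exact (Clopper-Pearson) 95% intervals and cover the counting of regions only. Reads copied by PCR are not separate molecules, and the regions of a library do not replicate its condition.

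In CUT&Tag, an antibody tethers a transposase to chromatin, and the enzyme inserts sequencing adapters into the DNA nearby. H3K9lc is lactylation of lysine 9 of histone H3, a histone mark fed by lactate. JUN is a subunit of AP-1, which binds the letters TGAGTCA or TGACTCA. SMAD3 carries the TGF-β signal from its receptors to DNA, and NFATC2 is a transcription factor activated by calcineurin. A profile with no antibody named can be described by where its regions lie, what sequence they hold and which known profiles share them.

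The library was thin. The median called region held 2 reads (quartiles 1 and 3), whereas the medians were 37 for JUN, 20 for H3K9lc, 6 for SMAD3 and 5 for NFATC2. Called regions held 399363 reads in all, against 483763 for SMAD3, 500372 for NFATC2, 2313048 for H3K9lc and 4078040 for JUN. They covered 28.5 Mb at 14.0 reads per kb, and the SMAD3 regions covered 9.76 Mb at 49.6 reads per kb. Members had a median of 6 reads (quartiles 5 and 8), a median width of 349 bp and a maximum of 14181 reads. Library depth outside the listed regions is unknown.

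Sequences of 6 members are shown for the sequence features that the results below describe, and they do not stand for the members as a whole, of which 4050 are under 50% masked. They are given 5′ to 3′ on the plus strand of GRCm38 (mm10). The member with most reads, 14181, lies at chr2:98666240-98667314 in an exon of the predicted gene Gm10800, and the authors' annotation assigned it to Lrrc4c, a synaptic adhesion gene 1198 kb away. Its central 234 bases, chr2:98666660-98666893, are shown because this sequence type held the most reads, and GC content of the whole member is 35.3%.

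Lrrc4c-assigned member: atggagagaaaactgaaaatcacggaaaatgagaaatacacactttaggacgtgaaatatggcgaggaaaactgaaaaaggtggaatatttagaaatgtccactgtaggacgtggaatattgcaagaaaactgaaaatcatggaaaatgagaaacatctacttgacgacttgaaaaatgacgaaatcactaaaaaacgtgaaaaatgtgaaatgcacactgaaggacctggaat

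A pair of members within introns are shown because they resemble mitochondrial DNA. In both, capitals mark the bases that aligned to the mouse mitochondrial genome. The Smyd3 member (chr1:179390345-179390593, 88 reads) lies in intron 5 of 11 of this histone methyltransferase gene and aligned over 194 of 249 bases at 82.3% identity. The Mrc1 member (chr2:14313590-14313754, 156 reads) lies in intron 21 of 29 of this macrophage mannose receptor gene and aligned over 150 of 165 bases at 89.3% identity.

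Smyd3 member: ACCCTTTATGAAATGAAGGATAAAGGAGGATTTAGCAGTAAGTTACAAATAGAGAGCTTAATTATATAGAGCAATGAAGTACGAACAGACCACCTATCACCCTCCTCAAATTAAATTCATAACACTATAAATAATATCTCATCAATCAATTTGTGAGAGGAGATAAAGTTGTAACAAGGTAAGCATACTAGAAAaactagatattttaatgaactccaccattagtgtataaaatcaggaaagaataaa

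Mrc1 member: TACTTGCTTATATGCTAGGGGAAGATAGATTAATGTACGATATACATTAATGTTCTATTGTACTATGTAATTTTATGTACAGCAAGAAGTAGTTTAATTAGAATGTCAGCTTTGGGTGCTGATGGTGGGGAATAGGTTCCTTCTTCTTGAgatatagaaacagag

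A further pair show the simple repeats common among the members of few reads. The Ppp3ca member (chr3:136677336-136677550, 8 reads) lies in an intron of the gene for a calcineurin catalytic subunit, and capitals mark a run of TG units. The only member assigned to Hk1, which encodes the hexokinase silenced in the series, lies at chr10:62359365-62359656 and held 6 reads. The authors' annotation labels it promoter, 1.003 kb from a start site, but it overlaps the span of the Hk1 gene. Which transcript that start site belongs to was not examined, so the label does not place this member at the upstream Hk1 promoter. It is made of interrupted TG runs with 86 TG steps in 292 bases, and 96.2% of it is repeat-masked.

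Ppp3ca member: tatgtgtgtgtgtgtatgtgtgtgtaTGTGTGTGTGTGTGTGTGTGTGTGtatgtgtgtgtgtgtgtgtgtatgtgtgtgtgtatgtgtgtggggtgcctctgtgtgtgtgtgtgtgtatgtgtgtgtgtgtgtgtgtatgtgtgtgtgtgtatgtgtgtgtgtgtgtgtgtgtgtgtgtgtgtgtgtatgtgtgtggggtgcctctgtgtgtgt

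Hk1 member: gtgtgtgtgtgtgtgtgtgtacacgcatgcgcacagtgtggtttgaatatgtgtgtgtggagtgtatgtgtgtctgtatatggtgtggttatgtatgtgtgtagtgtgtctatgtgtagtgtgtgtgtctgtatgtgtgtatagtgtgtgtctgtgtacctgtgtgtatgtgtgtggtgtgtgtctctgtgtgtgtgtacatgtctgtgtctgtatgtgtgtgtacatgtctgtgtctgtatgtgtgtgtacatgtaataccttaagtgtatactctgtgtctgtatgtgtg

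The Axin2-assigned member is shown as the contrasting case, a region of little repeat that was called with all 4 named antibodies. It lies between genes at chr11:109011646-109012100, 68.0 kb from the start site of this WNT feedback gene, and held 14 reads. Its central 200 bases, chr11:109011773-109011972, hold 19 CG steps, and capitals mark the only motif match found there, the TEAD letters on the minus strand.

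Axin2-assigned member: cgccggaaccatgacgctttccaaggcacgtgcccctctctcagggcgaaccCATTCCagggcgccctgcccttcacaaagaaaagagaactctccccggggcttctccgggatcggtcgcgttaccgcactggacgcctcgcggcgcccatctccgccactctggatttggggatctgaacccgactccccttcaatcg

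The overlap of members with the named TGF-β profiles asks which known antibody the library resembles. An overlap was 1 or more shared bp. Of the 7499 members, 1775 overlapped a SMAD3 region (23.7%, interval 22.7% to 24.6%), 1551 an NFATC2 region (20.7%, 19.8% to 21.6%), 1526 an H3K9lc region (20.3%, 19.4% to 21.3%) and 1431 a JUN region (19.1%, 18.2% to 19.99%). The SMAD3 interval lay above the others, and those of NFATC2, H3K9lc and JUN overlapped in part. All 4 shares are of the same members, so comparing their intervals is no test of the order. Over the 333529 regions listed in the same table but not called in this library, the shares were 1.53% for SMAD3, 1.58% for NFATC2, 2.67% for H3K9lc and 4.48% for JUN. Member shares were therefore 15.4 times the background for SMAD3, 13.1 times for NFATC2, 7.62 times for H3K9lc and 4.26 times for JUN. Members were wider than the regions not called (medians 349 and 158 bp), and within a width of 300 to 400 bp the ratios fell to 4.69, 3.59, 2.97 and 1.66 in the same order.

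Most members overlapped nothing in the named profiles. Of all members, 4552 (60.7%) overlapped none of the 4, against 91.5% of the regions not called. At the other end, 590 members overlapped all 4 profiles, or 7.87% (7.27% to 8.50%) against 0.0762% of the regions not called. These 590 members held 62.6% of the reads of all members. Seen from the named side, members touched 5.81% of SMAD3 regions, 4.93% of NFATC2 regions, 2.68% of H3K9lc regions and 2.24% of JUN regions. In the NC library, from untreated cells, peaks were called at 9222 regions, and 267 members (3.56%) overlapped one of them, against 0.280% of the regions not called. That ratio, 12.7, was near the ratio of NFATC2 (13.1).

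Overlap with a single profile was the smaller part. A share of 5.16% of members overlapped H3K9lc and no other profile, 4.87% SMAD3 only, 3.87% JUN only and 2.93% NFATC2 only. Among members that overlapped JUN at all, 20.3% overlapped JUN only, whereas 78.2% of the JUN-overlapping regions that were not called did so. For SMAD3 the corresponding shares were 20.6% and 54.7%. The share overlapping JUN only was 1.10 times that of the regions not called, and the ratio was 5.80 for SMAD3, 3.91 for NFATC2 and 2.41 for H3K9lc.

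The overlap rose with read count and did so for every profile. Members with 5 reads overlapped the 4 profiles in 7.45% to 8.71% of cases, and members with 6 to 7 reads in 13.1% to 17.98%. The range was 29.2% to 42.0% at 8 to 11 reads, 64.2% to 73.0% at 12 to 49 reads and 75.9% to 83.0% at 50 or more. Called regions with fewer than 5 reads overlapped SMAD3 in 1.54% of cases, NFATC2 in 1.47%, H3K9lc in 2.71% and JUN in 3.36%, close to or below the regions not called. The read classes were chosen after the data were seen. The same rise was present among members 300 to 400 bp wide, where SMAD3 overlap went from 8.97% at 5 reads to 67.9% at 12 to 49 reads and 90.9% at 50 or more.

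**Figure D1:**
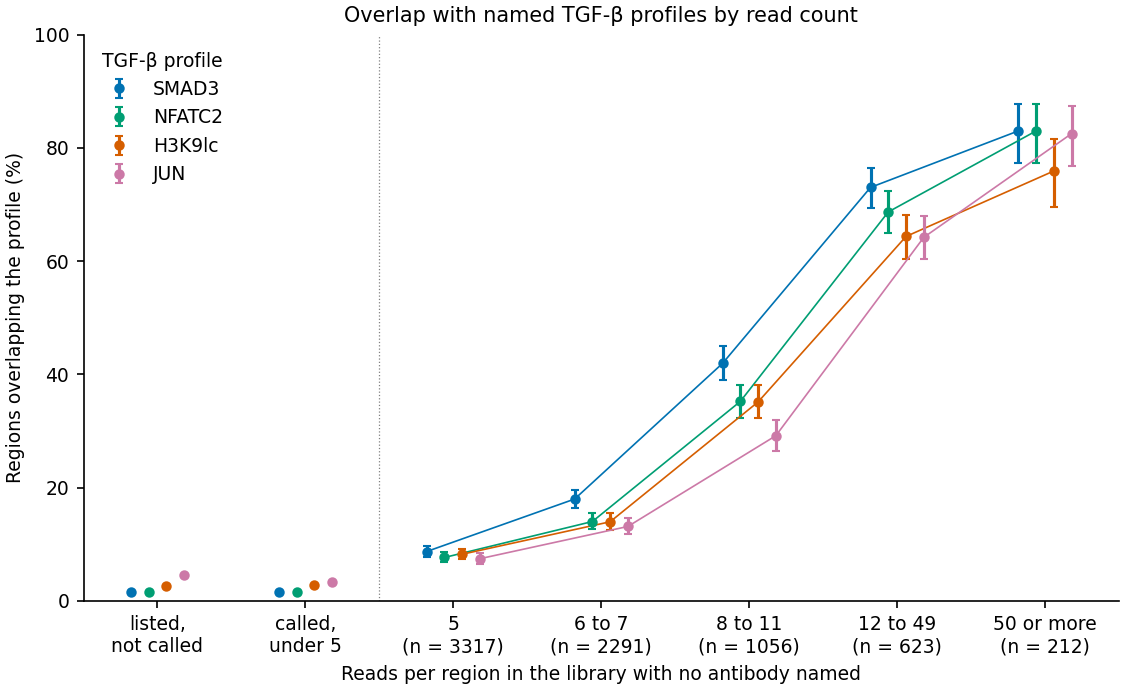
Share of regions (vertical axis, %) that overlap each TGF-β profile, by reads per region in the library with no antibody named (horizontal axis), with exact 95% intervals. Points of 4 colours stand for SMAD3, NFATC2, H3K9lc and JUN; all rise together from 7.45% to 8.71% at 5 reads to 75.9% to 83.0% at 50 or more, while regions with fewer than 5 reads sit beside those not called.

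To give these shares a scale, the same minimum of 5 reads was applied to libraries of known antibody. Of the regions of the JUN knockdown library, 81.3% overlapped the JUN TGF-β profile, and of the H3K9lc knockdown library 53.1% overlapped the H3K9lc profile. The thin factor libraries found their own partners less often: 18.4% for SMAD3 and 23.0% for NFATC2. Those 2 libraries overlapped JUN most, at 54.5% and 39.3%, whereas members overlapped JUN in 19.1%. The 448 such regions of NC, a library whose table compares it with H3K9lc, overlapped the H3K9lc profile in 94.2%. Each knockdown library shares a table, and so region boundaries, with the TGF-β library of its own antibody, whereas the library titled TGF shares a table with no named antibody.

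The TGF-β SMAD3 and NFATC2 libraries were also thin. With 5 or more reads, SMAD3 regions overlapped JUN in 20.8%, NFATC2 in 17.6% and H3K9lc in 13.2% of cases, and NFATC2 regions overlapped JUN in 29.6%, SMAD3 in 18.02% and H3K9lc in 13.1%. Members overlapped JUN somewhat less than SMAD3 regions did (19.1%), NFATC2 more (20.7%) and H3K9lc more (20.3%). Shares of the members ran from 19.1% to 23.7%. Every knockdown library has the profile of its own antibody among the 4, so its spread cannot be compared with that of the members. Over the other profiles, H3K9lc knockdown regions ran from 6.62% to 7.37%, so near-equal shares are not particular to the members. The members' shares became uneven with an equal number of regions from each profile, those of most reads, and the cause was not tested. With that choice members overlapped SMAD3 in 20.8%, NFATC2 in 18.1%, H3K9lc in 10.3% and JUN in 3.72%.

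Leaving out regions at least 50% repeat-masked lowered the member shares and changed their order. Among the 4050 members below that limit, 15.2% overlapped JUN (14.09% to 16.3%), 13.0% NFATC2, 12.9% SMAD3 and 12.7% H3K9lc. The JUN interval lay above those of SMAD3 and H3K9lc and met that of NFATC2 (11.99% to 14.09%). The regions not called below the same limit overlapped these profiles in 5.42%, 1.49%, 1.23% and 1.69%, so the ratio was still highest for SMAD3 (10.5) and lowest for JUN (2.80). The TGF-β SMAD3 library overlapped JUN in 22.97% under that limit, and the SMAD3 and NFATC2 knockdown libraries in 59.5% and 43.7%.

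**Figure D2:**
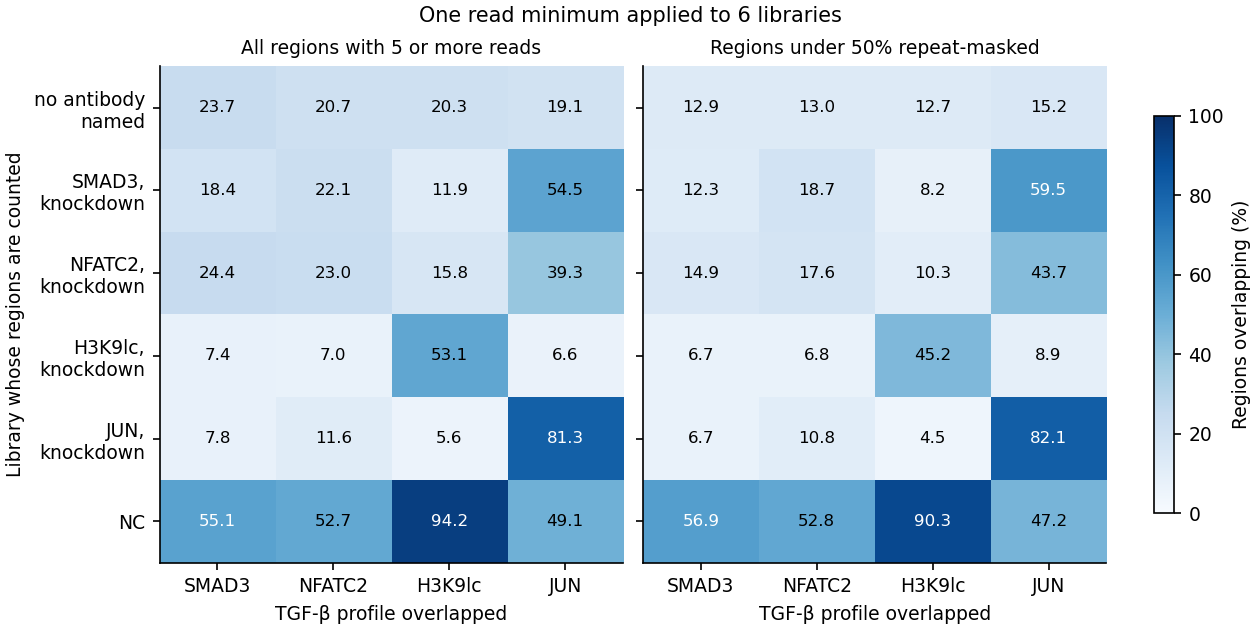
Share (%) of regions with 5 or more reads in each of 6 libraries (rows) that overlap each TGF-β profile (columns), for all regions on the left and for regions under 50% repeat-masked on the right. The row of the library with no antibody named runs from 19.1% to 23.7% on the left and 12.7% to 15.2% on the right. The H3K9lc and JUN knockdown rows peak at their own column, and the library with no antibody named has no column known to be its own. The profiles differ in size, from 30582 to 64075 regions, and the members' row is uneven when equal numbers are taken (3.72% to 20.8%).

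The reads lay in a small number of members. The 212 members with 50 or more reads made up 2.83% of members and held 66.2% of member reads, and the 10 members with most reads held 29.3%. All 10 overlapped all 4 named profiles. They lay near Lrrc4c (14181 and 2740 reads), near Col19a1 (8740 and 4825), near Mir101c (3244 and 2807) and near Gm5458 (2865), 2700054A10Rik (2435), Zfp825 (1974) and Fgf14 (1934). The gene named is the nearest start site in the deposited annotation, at distances from 14.1 to 1198 kb, and not a gene shown to be regulated.

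Members alike in sequence to the Lrrc4c-assigned member held more reads than any other kind set apart here. Using at least 80% identity over at least 50% of the region, 34 members on 8 chromosomes resembled it, and they held 28.7% of member reads with a median of 696 reads each. Of these, 24 overlapped all 4 profiles. Shifted against itself, this member matched best at 234 bases, with 53.3% of positions equal. In the named libraries the same place held 42265 reads for H3K9lc, 32661 for SMAD3, 30491 for NFATC2 and 15742 for JUN, and it was also called in NC with 7656. No called region of the JUN, SMAD3 or NFATC2 library held more reads.

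Resemblance to mitochondrial DNA marked a further block. Aligned at any identity over at least 30% of their width, 66 members on 19 chromosomes matched the mitochondrial genome, at a best identity from 73.3% to 100% (median 86.7%). They were 0.880% of members (0.681% to 1.12%). The share was 0.00570% of the regions not called, 0 of 123753 called regions with fewer than 5 reads (which allows up to 0.00298%). Over every called region of the library the share was 0.0503%, against 0.0337% for H3K9lc, 0.0484% for JUN, 0.105% for SMAD3 and 0.118% for NFATC2. Members are the 5.71% of called regions with most reads, and in the same top share of the named profiles it was 0.248% for H3K9lc, 0.298% for JUN, 1.74% for SMAD3 and 1.90% for NFATC2, so that the members' share lay between. At a fixed read count it lay above all 4: with 5 or more reads the profiles had 0.0341%, 0.0485%, 0.161% and 0.189% in the same order, and with 50 or more reads 0.130%, 0.0970%, 3.86% and 6.88% against 28.3% of members. The order of the libraries thus changed with the way of matching reads. The 66 members held 18.2% of member reads, with a range from 14 to 8740 and a median of 181. Whether their reads came from these nuclear places or from mitochondrial DNA was not tested. The count depended on the limits. At 95% or more identity over at least 50% of the width, 11 of the 66 members remained, with 11.3% of member reads. Among these 11, only the member assigned to Abcb11 overlapped no named profile.

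Of the 212 members with 50 or more reads, 60 resembled mitochondrial DNA (28.3%), 30 the Lrrc4c-assigned member and 122 neither. The 3 kinds overlapped the named profiles differently. Of the 122 members of neither kind, 112 overlapped all 4 profiles, and 95 were at least 50% repeat-masked. Of the 60 mitochondrial-like members, 12 overlapped all 4 and 22 overlapped none. In all, 23 members with 50 or more reads overlapped no named profile, and 22 of these resembled mitochondrial DNA. The remaining member, assigned to 4933433F19Rik with 90 reads, aligned over 21.6% of its width, below the limit of 30%.

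The members that overlapped no profile despite many reads were narrow. The 23 had a median width of 165 bp, against 231, 320, 473 and 696 bp for those that overlapped 1, 2, 3 and 4 profiles. Their median GC content of 34.6% was near the 35.7% to 36.6% of those that overlapped 1 to 3 profiles, and it was 49.2% for those that overlapped all 4. The 5 with most reads, chosen after the values were seen, were assigned to Cdh11 (362 reads, chr8:102024596-102024792), Galnt18 (228), Cdc73 (205), Rpl10l (202) and Abcb11 (198), and all 5 were mitochondrial-like. The Cdh11-assigned member lies 613 kb from the start site of this cadherin gene. Among the mitochondrial-like members with many reads that did overlap profiles, the Col19a1-assigned pair aligned over 100% of their width at 99.9% and 100% identity, within a block of unprocessed pseudogenes on chromosome 1. The larger of them, chr1:24611624-24614567, spans several called regions in each named library, and their reads sum to 39726 for NFATC2, 35169 for SMAD3, 22563 for JUN and 8975 for H3K9lc. The sums at the smaller, which shares some of these regions, are 44948, 15784, 12945 and 5851.

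**Figure D3:**
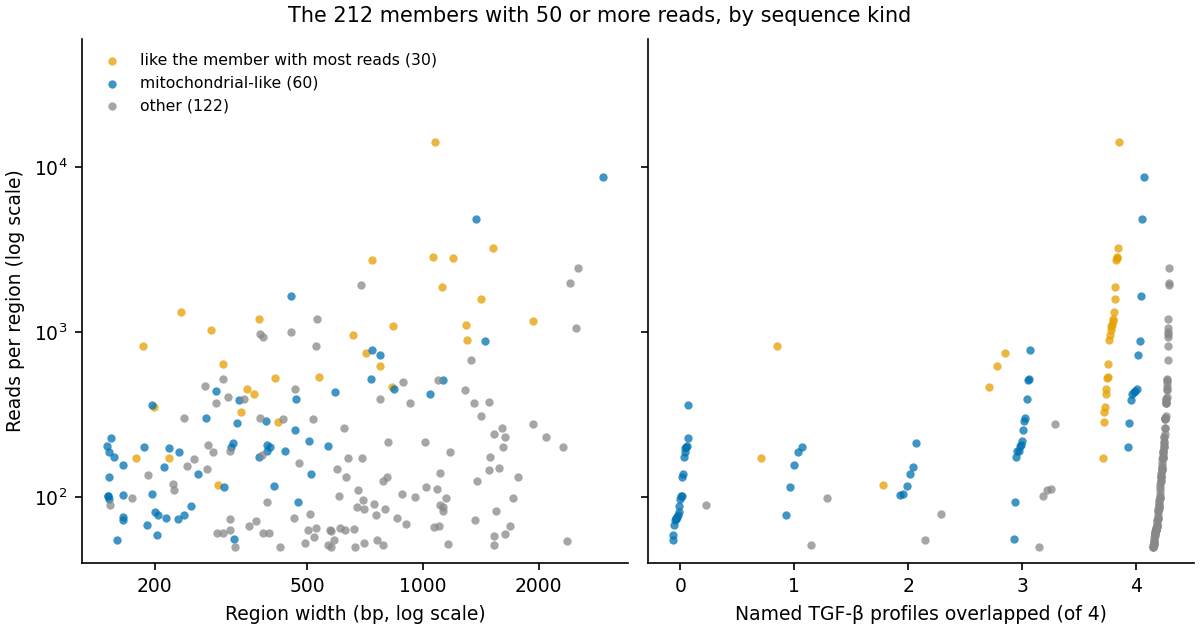
Reads per region (vertical axis, log scale) of the 212 members with 50 or more reads, against region width in bp (left, log scale) and against the number of named TGF-β profiles overlapped (right, points spread sideways within a number). Colours mark 60 mitochondrial-like members, 30 members like the one with most reads and 122 others; 22 of the 23 members that overlap no profile are mitochondrial-like.

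Members that overlapped exactly 1 profile were ranked by reads to see what a profile-specific match looked like. For SMAD3 they were the Mrc1 member (156 reads, 35 in the SMAD3 library), the Asxl3 member (78 reads, 37) and a Ppm1b intron member (25 reads, 10). For NFATC2 they were assigned to Il12b (201 reads, 39 in the NFATC2 library), Olfr161 (30 reads, 69) and Sfi1 (25 reads, 232). The JUN ones were assigned to Lrrc4c (822 reads, 1373 in the JUN library), Mir6481 (188 reads, 57) and Mir101c (172 reads, 256), and the H3K9lc ones to Sfi1 (51 reads, 118 in the H3K9lc library), Hnf4g (22 reads, 191) and Nedd4l (20 reads, 58). The Mrc1, Asxl3, Il12b and Mir6481 members were mitochondrial-like by the criterion above, and the JUN-only members assigned to Lrrc4c and Mir101c were like the member with most reads. Knockdown libraries of another antibody were called at some of these members. At the JUN-only members, reads were 1382 for NFATC2 (Lrrc4c), and 828 for H3K9lc and 264 for NFATC2 (Mir101c), with no JUN knockdown call at either. Others were Asxl3 (30 for NFATC2), the NFATC2-only Sfi1 member (69 for H3K9lc) and Nedd4l (16 for NFATC2). No such call was recorded at the rest of those named.

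Where members overlapped all 4 profiles, their read levels rose and fell with those of the named libraries. Over the 590 regions, Spearman's rho of reads per kb was 0.84 with SMAD3, 0.83 with NFATC2, 0.73 with H3K9lc and 0.71 with JUN. SMAD3 and NFATC2 correlated with each other at 0.92. In the 442 of these regions under 50 reads the values were 0.66, 0.64, 0.48 and 0.44. These are descriptions across regions of shared width and repeat content, not tests. In the member classes below 50 reads, overlapped JUN regions had medians of 23.5 to 36 JUN reads, against 37 over the whole JUN profile. The medians were 14 to 36 against 6 for SMAD3, 11.5 to 34 against 5 for NFATC2 and 34 to 72.5 against 20 for H3K9lc. At members with 50 or more reads they were above the whole profile for all 4, at 282 for JUN, 424 for SMAD3, 403 for NFATC2 and 1652 for H3K9lc.

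A few genes were assigned many members. The 5 with most were Mir101c (24 members of 51 listed regions, from 8 to 3244 reads), Sfi1 (22 of 53, 16 to 141), Pisd-ps2 (21 of 40, 5 to 449), Hnf4g (13 of 178, 5 to 52) and Vmn1r2 (12 of 32, 8 to 277). Of the 24 Mir101c members, 15 overlapped all 4 profiles, and of the 21 Pisd-ps2 members, 16 did. Counted in windows of 1 Mb, the median window held 2 members (quartiles 1 and 4), while the window at 3 to 4 Mb on chromosome 11 held 30, those at 85 to 86 Mb on chromosome 1 and 3 to 4 Mb on chromosome 17 held 27 each and that at 3 to 4 Mb on chromosome 9 held 25.

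The spread of members along chromosomes resembled that of the factor profiles and of the table itself. Over 2625 windows of 1 Mb on chromosomes 1 to 19 and X, Spearman's rho of members was 0.57 with JUN, 0.55 with SMAD3, 0.53 with NFATC2 and 0.033 with H3K9lc. It was 0.55 with the listed regions that were not called, so the 3 factor values stood near the background. Windows share gene density and base composition, and no p is given. Autosomes held 2.49 to 3.52 members per Mb, X held 0.637 and Y held 0.414. The regions listed were also fewer there: 13761 on X (109 members) and 2119 on Y (38 members), against 35656 on chromosome 1 (546 members).

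Promoter share of the members lay between H3K9lc and the factors. Promoters held 11.9% of members (11.2% to 12.7%), against 6.53% of H3K9lc regions, 14.7% of SMAD3 regions, 18.1% of NFATC2 regions and 25.7% of JUN regions. Listed regions that were not called had 12.04%, within the interval of the members. In the top 5.71% of each profile by reads, promoters held 7.03% of H3K9lc, 14.5% of SMAD3, 22.7% of JUN and 25.6% of NFATC2 regions. Introns held 39.2% of members and distal intergenic DNA 43.9%. The intergenic share was 44.0% for SMAD3, 41.6% for NFATC2, 32.9% for JUN and 66.1% for H3K9lc. The median distance to a start site was 26.0 kb for members, 26.7 kb for SMAD3, 23.6 kb for NFATC2, 14.5 kb for JUN and 49.8 kb for H3K9lc, and 33.2 kb for regions not called.

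Repeat content of the members depended on their reads. At least 50% of the bases were masked in 46.0% of members, against 24.8% of regions not called, 6.43% of JUN regions, 24.98% of NFATC2 regions, 31.2% of SMAD3 regions and 58.5% of H3K9lc regions. Over every called region of the library it was 24.1%, near NFATC2, and among members it ran from 35.7% at 5 reads to 65.2% at 8 to 11, 62.9% at 12 to 49 and 58.5% at 50 or more. In the top 5.71% of each named profile by reads it was 3.93% for JUN, 47.7% for NFATC2, 63.2% for H3K9lc and 65.4% for SMAD3. Members that overlapped no profile were 26.3% masked at the median, and members that overlapped all 4 were 79.7% masked.

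**Figure D4:**
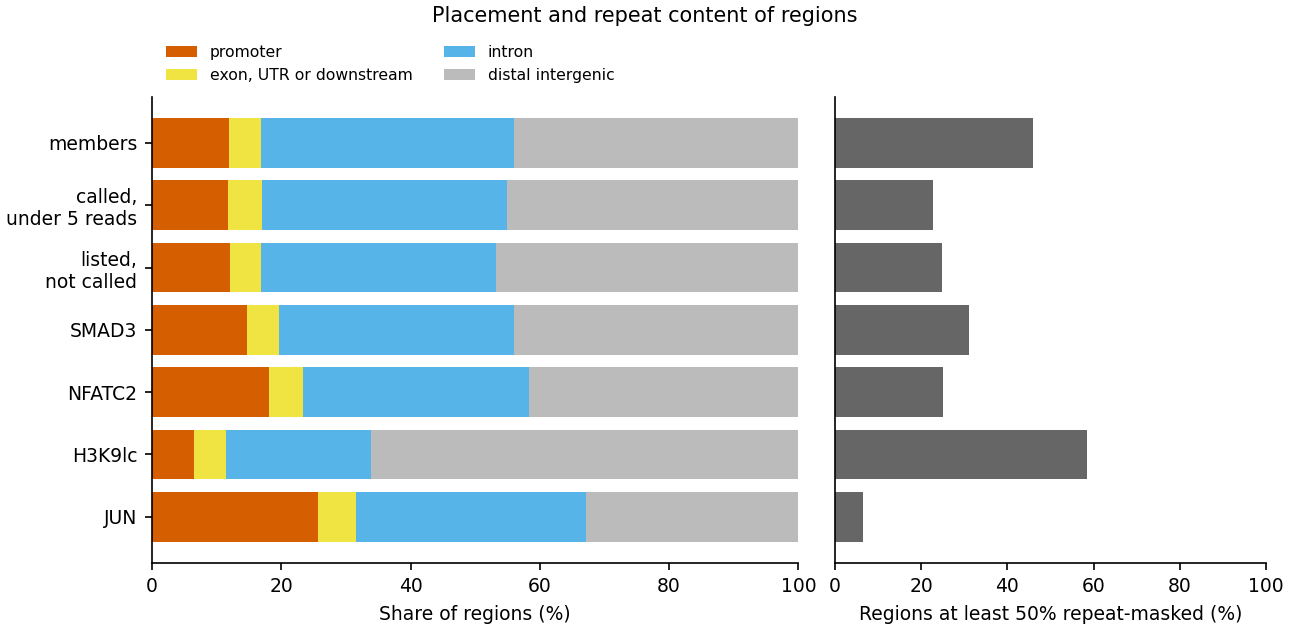
Left, share of regions (%) in promoters, exons with UTRs and downstream sequence, introns and distal intergenic DNA, for members, other regions of the same table and the 4 named TGF-β profiles. Right, share of regions (%) with at least 50% of bases repeat-masked: members stand at 46.0%, above JUN (6.43%), NFATC2 (24.98%) and SMAD3 (31.2%) and below H3K9lc (58.5%), which are given over all their called regions with no read minimum.

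Binding letters of the named factors were searched on both strands in the 200 bp around each region's middle. The AP-1 letters were present in 2.20% of members (1.88% to 2.56%) and in 25.5% of JUN regions. Even the 1431 members that overlapped a JUN region had them in 2.66% (1.89% to 3.63%). The share was 3.78% in regions not called and 3.11% in windows 5 kb to either side of the members. A match is a description of letters and not a site, and the lack of a match says nothing of binding.

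Over all members, only the SMAD letters CAGACA were more frequent than in the windows nearby. NFAT letters (GGAAAA) were present in 8.45% of members, 14.5% of NFATC2 regions and 18.8% of the windows 5 kb away, and TEAD letters (GGAATG) in 7.41%, 10.6% and 10.5% respectively. The interferon response element, a pair of GAAA separated by any 2 bases, was present in 0.867% of members and 2.97% of the windows 5 kb away. The SMAD letters CAGACA were present in 22.5% of members (21.6% to 23.5%), 19.7% of SMAD3 regions, 19.4% of regions not called and 17.3% of the windows 5 kb away. Among members under 50% masked the share was 19.4% (18.2% to 20.6%), level with the regions not called. The regions not called and the windows were not split by masking. The palindrome GTCTAGAC was present in 0.160% of members and 0.154% of SMAD3 regions. By reads, NFAT letters were present in 9.89% of members with 5 reads, 8.64% with 6 to 7, 3.88% with 8 to 11, 2.57% with 12 to 49 and 24.1% with 50 or more. The sequence shown for the Lrrc4c-assigned member holds the NFAT letters, and 30 of the 212 members with 50 or more reads resembled that member. How many of the matches lay in those 30 was not counted. CAGACA was present in 23.7% of members with 5 reads and fell to 11.8% of those with 50 or more.

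Simple CA or TG runs were frequent in members of few reads and were not found in those of many. Runs of 10 or more CA or TG units, a search added after the data were seen, were present in 13.5% of members (12.8% to 14.3%), and in 6.74% of members under 50% masked. The share was 4.32% in regions not called, 4.45% in called regions with fewer than 5 reads and 2.11% in windows 5 kb away. Named profiles had 5.88% for SMAD3, 4.38% for NFATC2, 2.65% for JUN and 2.18% for H3K9lc. In the top 5.71% by reads these were 10.8% for SMAD3 (9.38% to 12.3%), 8.33% for NFATC2, 1.60% for JUN and 1.24% for H3K9lc. Over every called region of the library titled TGF the share was 4.97%. The runs were present in 11.97% of members with 5 reads, 15.5% with 6 to 7, 17.2% with 8 to 11 and 13.0% with 12 to 49, and in 0 of 212 with 50 or more reads, which allows up to 1.72%. With 50 or more reads the named profiles had 4.29% for SMAD3, 2.75% for NFATC2, 1.91% for JUN and 1.32% for H3K9lc, of which the H3K9lc value lies within that limit. Members that overlapped no profile had them in 13.8% (12.8% to 14.8%) and members that overlapped all 4 in 10.8% (8.45% to 13.6%).

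**Figure D5:**
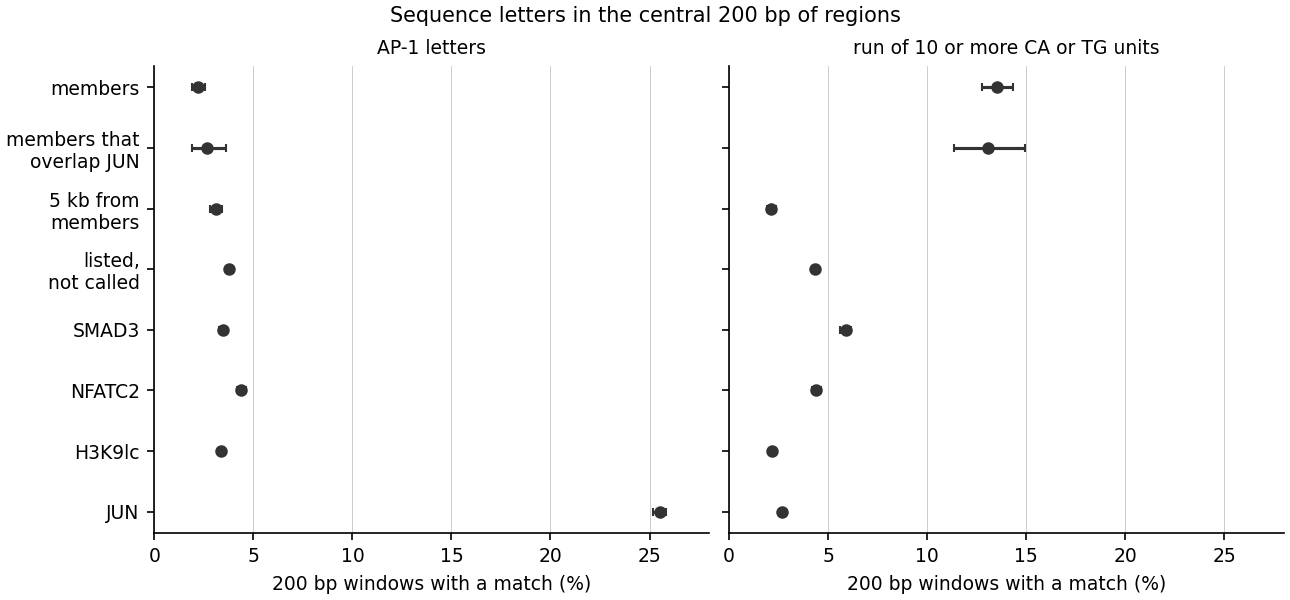
Share (%) of 200 bp windows at region centres that hold the AP-1 letters (left) or a run of 10 or more CA or TG units (right), with exact 95% intervals. AP-1 letters stand at 25.5% in JUN regions and at 2.66% in members that overlap JUN, and CA or TG runs stand at 13.5% in members and at most 5.88% in the named profiles, taken over all their called regions.

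Members were assigned to 5025 of the 23249 genes in the table (21.6%). Most of these genes were also assigned a named region: 86.3% for JUN, 81.3% for NFATC2, 80.8% for SMAD3 and 75.2% for H3K9lc. Over all genes in the table the shares were 67.8%, 53.7%, 51.6% and 49.7%. A gene of many listed regions can be shared without any shared base, so gene overlap was broader than region overlap for all 4 profiles.

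Gene lists were read against that 21.6%. Transcription factors of cardiac fibroblasts had a member at 13 of 23 genes, with 36 members of which 17 overlapped a named profile. The most members lay near Foxp1 (7 members, 5 to 8 reads), Osr1 (6, 5 to 41) and Runx1 (5, 5 to 16), and 1, 3 and 5 of these overlapped a named profile respectively. The members of Klf4, Mef2c, Meis1, Meis2 and Tbx20 overlapped none, as did 60.7% of all members. Osr1, a factor of heart and kidney mesenchyme, had members of 41 reads (none of it masked) and 30 reads (100% masked) that overlapped all 4 profiles, 143 and 125 kb from its start site. The Tbx20 member, in intron 6 of 7 of this cardiac T-box gene, held 74 reads, overlapped no profile and aligned to mitochondrial DNA over 75.2% of its width.

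TGF-β pathway genes had a member at 9 of 20 genes. The member of most reads, assigned to the pseudoreceptor gene Bambi 131 kb away, held 283 reads and was mitochondrial-like. The next were assigned to Pmepa1, a feedback inhibitor (11 reads, SMAD3 overlap, 100% masked), and to Ltbp2, a latency-binding protein gene (7 reads, none). AP-1 family genes had a member at 6 of 13 genes, and none of their 10 members, led by Fosl2 with 8 reads, overlapped a named profile. Over all members 60.7% overlapped none, and 78.7% of those with 5 reads, so a count of 0 in a short list of members with few reads is not particular to it. NFAT and calcineurin genes had one at 5 of 11 genes, led by Rcan2 (11 reads, with 38 in JUN and 9 in H3K9lc) and Ppp3ca (8 reads, with 137 in JUN).

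Matrix and interferon genes had members at about the share of all genes. Myofibroblast and matrix genes had a member at 4 of 19 genes (21.1%), with 5 to 9 reads each and no overlap with a named profile, led by Fbn1 (9 reads), Fn1 (7) and Col5a1 (6). Interferon and IRF genes had a member at 4 of 24 genes (16.7%), led by Irf8 (9 reads), Irf4 (5) and Mx2 (5), and none overlapped a named profile. Of all members 60.7% overlapped none, and of those with 5 reads 78.7%, so the lack of overlap is not particular to these lists. Irf7 had 1 called region, of 2 reads, and no member. Hexokinase and glycolysis genes had a member at 4 of 21, with 6 members of which 3 overlapped a named profile. Among these, the Hk1 member overlapped a SMAD3 region of 11 reads and no other profile. No test was run on these shares, and a gene with more listed regions has more chances of a member.

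Of 12 genes that the study displays or names, Irf7 included, 5 had a member: Axin2 (14 reads, with 653 in H3K9lc, 518 in JUN, 373 in NFATC2 and 133 in SMAD3), Cdk1 (7 reads, SMAD3 overlap), Hk1 (6 reads), Col1a2 (5 reads, none) and Smyd3. Of the 4 Smyd3 members, 3 held 5 reads, and the fourth is the mitochondrial-like intron member of 88 reads. Postn, Acta2, Lox, Col3a1, Col1a1, Slc40a1 and Irf7 had called regions of at most 4 reads.

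Genes of other cell types were counted because these data hold no RNA by which the labelled cell type could be checked. Cardiomyocyte genes had a member at 5 of 13 genes, led by Ryr2, the calcium release channel, with 9, 8 and 7 reads. Olfactory receptor genes had a member at 44 of 1047 (4.202%) and vomeronasal receptor genes at 23 of 327 (7.03%), both below 21.6%. H3K9lc regions were assigned to 546 and 275 of the same genes, and JUN regions to 82 and 21. NFATC2 regions were assigned to 224 and 119, and SMAD3 regions to 217 and 129. Over all genes in the table, regions were assigned to 49.7% for H3K9lc, 67.8% for JUN, 53.7% for NFATC2 and 51.6% for SMAD3. The receptor members of most reads, assigned to Olfr161 (311 and 231 reads), Vmn1r2 (277 and 263) and Vmn2r87 (261), lay 80.9 to 358 kb from the start sites, and one assigned to Olfr723 (101 reads) lay at 3.14 kb.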

How the data were processed

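CUT&Tag libraries of primary mouse cardiac fibroblasts were used as deposited tables. Per the file headers, every region has its raw read count in each library, whether a peak was called there, and the authors' gene annotation and distance to a start site. The deposited counts were not rescaled. The study's methods name Bowtie2, MACS2 and GRCm39, whereas the submitters' processing notes name BWA 0.7.12 and mm10. Transcript coordinates in the table equalled GENCODE vM21 (GRCm38) for 53637 of 53637 transcripts found, and no region passed a chromosome end, so coordinates are GRCm38 counted from 1. How multiply mapping reads were treated is not given in the sources used here. In the table of the library titled TGF, 3 columns of per-sample values match no sample and were not used. What the regions not called in this library are was therefore not examined. Columns of the authors' own comparisons (ratios and p-values) were not used.

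Members and gene lists were chosen with earlier results of these data known. Named members were, by rule, the 10 with most reads, up to 3 per gene list (11 lists), the 5 of most reads overlapping all 4 profiles and the 3 of most reads overlapping only 1 profile, with the 5 genes of most members. Others are said to have been chosen after their values were seen. Named profiles have no read minimum unless one is given, and their top shares by reads were an alternative chosen after seeing the data. Overlaps, intervals and motif counts used Python 3.11.15, pandas 2.3.3, scipy 1.17.1 and pysam 0.24.0, and alignments used blastn 2.17.0, with repeat masking from the lower case of the reference. The overlap and motif code was tested on simulated regions.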

Additional observations from a re-analysis of the deposited data

How the results depend on the processing

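Members overlapped H3K9lc, JUN, SMAD3 and NFATC2 in 20.3%, 19.1%, 23.7% and 20.7%, and values below keep that order. They moved to 6.99985%, 6.88%, 6.51% and 5.79% with 3 or more reads, 60.6%, 60.8%, 69.4% and 65.1% with 10 or more, and 3.72%, 4.26%, 2.81% and 2.57% over every called region. With an equal number of named regions they were 10.3%, 3.72%, 20.8% and 18.1%, and against the knockdown libraries 18.1%, 12.3%, 16.4% and 16.4%. Sharing 50% of the shorter region gave JUN 17.7%, SMAD3 22.2% and NFATC2 19.2%. Alternatives chosen after seeing the data gave 18.7%, 17.2%, 21.9% and 18.9% for members under 50 reads, 12.7%, 15.2%, 12.9% and 13.01% for those under 50% masked, and 15.03%, 14.6%, 18.4% and 14.8% for those of 300 to 400 bp. Over 12 settings, the main one included, SMAD3 had the highest ratio to regions not called in 11 and JUN the lowest in 12. The exception was the knockdown libraries, where the ratios were 11.1 for H3K9lc, 10.8 for NFATC2 and 9.83 for SMAD3. SMAD3 had the highest share in 8 of the 12. The settings share members and regions not called, so these counts are not repeated support for an order. The cause of the moves between settings was not tested. In called regions with fewer than 5 reads, the ratio was 1.004 for SMAD3, 1.02 for H3K9lc, 0.934 for NFATC2 and 0.750 for JUN.

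Promoters held 15.1% of members under 50% masked, and 4.93% where the start site had to lie within 1 kb. Genes of members also assigned a named region were 25.1%, 66.9%, 35.6% and 43.1% within 3 kb of a start site, 89.02%, 93.8%, 93.9% and 93.4% with 10 or more reads, and 33.7%, 36.1%, 48.6% and 47.1% with an equal number of named regions. Over all genes the shares were 12.5%, 49.98%, 18.1% and 22.3% within 3 kb, 49.7%, 67.8%, 51.6% and 53.7% with 10 or more reads, and 16.04%, 19.3%, 20.97% and 22.4% with an equal number. In windows of 250 kb, the rho of members with JUN fell to 0.35, with SMAD3 to 0.31 and with NFATC2 to 0.30, and without windows lacking a member these were 0.45, 0.45 and 0.44. AP-1 letters were present in 4.41% of members when the whole region was searched and in 3.16% of those under 50% masked, and CA or TG runs in 20.3% and 6.74%.

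With 1 library per antibody and condition, no difference between antibodies can be told apart from a difference between libraries. The named libraries differed in depth, from a median of 5 reads per called region for NFATC2 to 37 for JUN. The lack of overlap with a named profile is not evidence that the place was empty in that library. No paired analysis was possible because each antibody and condition has 1 library.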
